A study of Mus musculus with 14 samples.

Results

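Mast cells are set up and maintained by a small network of transcription factors, and 10 genes of that network were followed here in mast cells sorted from mouse ear skin. They were taken by symbol from a table of 55487 genes: Gata1, Gata2, Gata3, Mitf, Tal1, Lmo2, Spi1, Runx1, Cebpa and Irf8. All 10 were in the table, and 9 passed the filter on low counts. Cebpa did not pass, and its counts are given without a test.

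As background, GATA2 is needed for mast cells to form and persist, and GATA1 acts on many of the same sites later in maturation. TAL1 binds DNA beside GATA factors in a complex bridged by LMO2 and LDB1, and MITF drives Kit and several granule protease genes. PU.1, the product of Spi1, RUNX1, C/EBPα (Cebpa) and IRF8 act in most myeloid cells, and C/EBPα and IRF8 take part in the choice between mast cells, basophils, macrophages and dendritic cells.

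RNA was sequenced from 14 libraries in 3 groups. Libraries 1 to 5 were resident mast cells of untreated mice (untreated resident cells), libraries 6 to 10 were resident mast cells of mice treated with MC903 (MC903 resident cells), and libraries 11, 13, 14 and 15 were cells from ears of MC903-treated mice that carry the label bone marrow mast cells (bone marrow cells). MC903 is calcipotriol, a vitamin D analogue that produces a dermatitis resembling atopic dermatitis when put on mouse skin. Each library was made from a pool of no more than 100 sorted cells taken from the ears, amplified as full-length cDNA with SMART-Seq HT and made into a sequencing library with Nextera XT. The protocol text names resident cells and cells positive for integrin β7, and no cells taken from marrow, so the last group is called here only by its label. Strain, genotype, sex, age and the dose and duration of MC903 are not given in the sources used here. No label ties a library to an animal, so p-values measure only the spread between these libraries, which may be partly technical. In pooled cells, fewer cells of a type and less RNA per cell cannot be told apart.

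Total counts ran from 13068078 to 31781926 per library. Between 21874 and 25244 genes had a count in untreated resident libraries, 22632 to 35246 in MC903 resident libraries and 16025 to 32814 in bone marrow libraries. The mitochondrial share of counts was 1.22 to 1.70% in untreated resident, 2.39 to 3.96% in MC903 resident and 2.14 to 4.24% in bone marrow libraries, so it moved with the groups, and its part in the results below was not tested. The mast cell label was checked with Kit (stem cell factor receptor) and Cpa3 (mast cell carboxypeptidase), which were at 762 to 2033 and 18809 to 41985 CPM (counts scaled to a fixed library total, with TMM library factors) over the 14 libraries. MC903 resident libraries 7 and 8 had the lowest total counts and, with 34560 and 35246, the most genes with a count, and bone marrow library 15 came next with 32814. An alternative therefore leaves out these 3 together. Library 15 stood apart in its markers. The 12 macrophage and dendritic cell markers summed to 10685 CPM there while the other 13 libraries had sums of 58.2 to 363 CPM. Its Lyz2 was at 4838 CPM, C1qb at 2262 CPM and Csf1r at 1105 CPM, while the dendritic markers Flt3, Xcr1 and Cd207 were at 1.27, 0.254 and 0.152 CPM. Its 16 mast cell genes still summed to 114269 CPM, inside the range of 93151 to 171432 CPM over all libraries but below the other 3 bone marrow libraries (144121 to 168965 CPM). Log2 differences in bone marrow cells are therefore also given without library 15 for the followed genes, and the part of those other cells in them was not tested.

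Gata2 was the most abundant of these transcripts in every group, several times above the next gene. Levels of different genes are compared as TPM, which divides counts by exon length before scaling to a fixed total. In untreated resident cells Gata2 was at 1091 ± 152 TPM (SD, n = 5). Spi1 followed at 104 ± 7.12 TPM, Gata1 at 92.8 ± 9.57 TPM and Tal1 at 76.5 ± 20.03 TPM. Library ranges of Spi1, Gata1 and Tal1 overlapped between neighbours, so that their order was not separated. Mitf came next at 40.9 ± 9.82 TPM, overlapping Tal1 and separated from Lmo2 (19.9 ± 8.08 TPM). Runx1 (12.1 ± 2.23 TPM) overlapped Lmo2, and Gata3 (4.49 ± 3.10 TPM) lay below both. Cebpa and Irf8 were close to the limit of detection, with means of 0.281 and 0.0323 TPM.

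The ladder had the same top rung in the treated groups. Gata2 was at 618 ± 89.7 TPM in MC903 resident cells (SD, n = 5) and 724 ± 269 TPM in bone marrow cells (SD, n = 4), and its lowest library was above the highest of the next gene in both. Gata1 took the second place in MC903 resident cells, at 124 ± 31.1 TPM, where its range overlapped that of Spi1 (68.9 ± 18.5 TPM). In bone marrow cells Spi1 followed Gata2 at 121 ± 67.7 TPM and Gata1 came after it at 71.0 ± 5.69 TPM, again overlapping. The middle of the order (Mitf, Lmo2 and Runx1) was not separated between neighbours in either treated group, with the exception that Lmo2 lay above Gata3 in MC903 resident cells. Taking medians over libraries, or the longest annotated transcript as the length, moved Mitf, Lmo2, Runx1, Gata3 and Irf8 by at most 2 places in the treated groups and left the first 4 places as they were in all 3 groups.

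**Figure D1:**
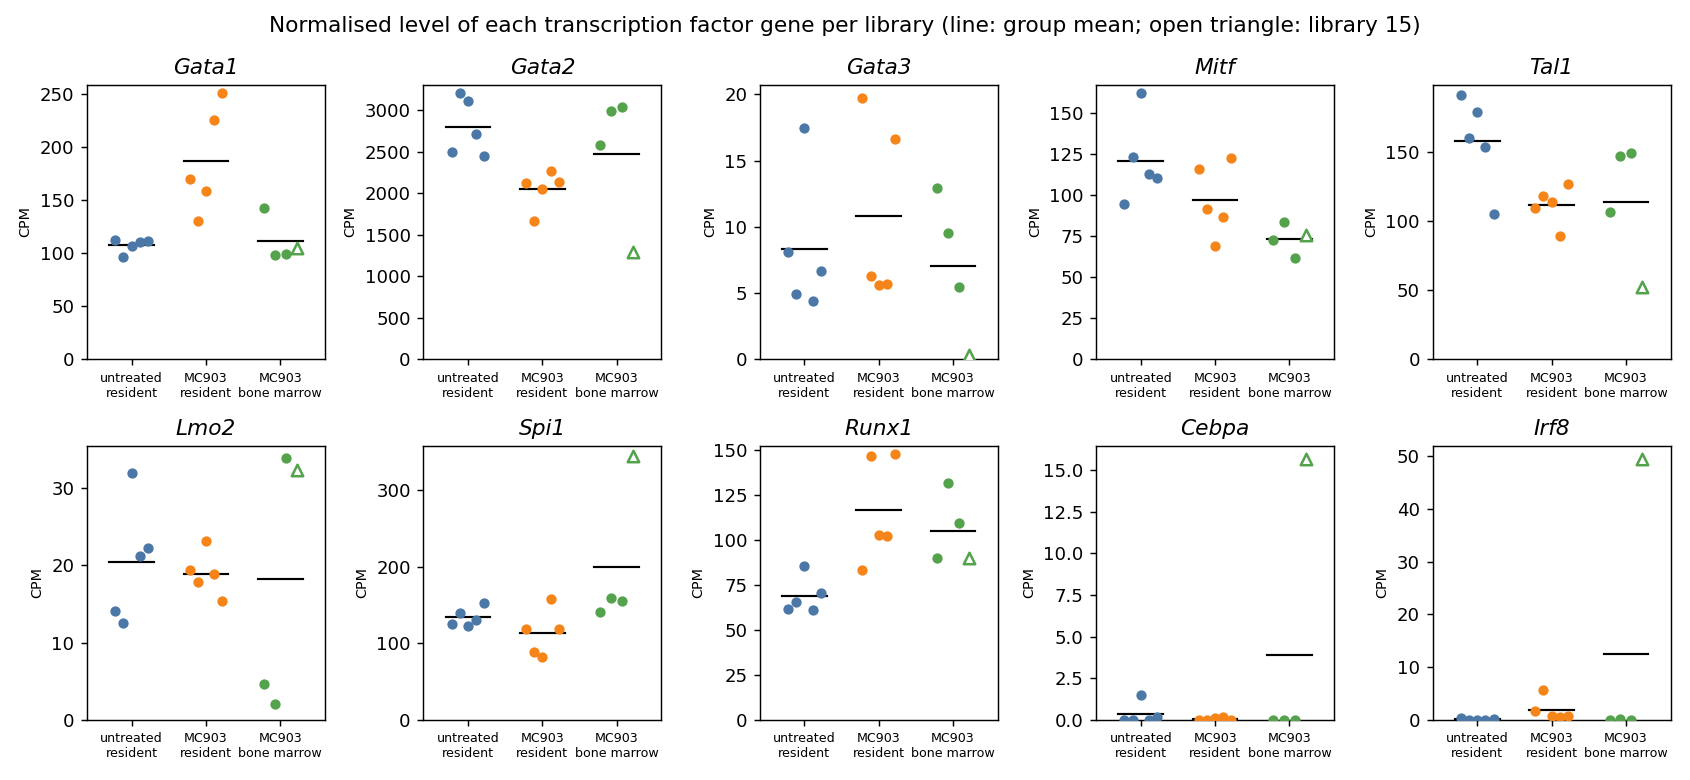
Normalised level (CPM, vertical axis from 0) of each of the 10 transcription factor genes in each library, by group, with the group mean as a line and library 15 as an open triangle. Gata1 stands higher in all 5 MC903 resident libraries than in all 5 untreated ones, and Cebpa and Irf8 stand high in library 15 alone.

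Promoter windows were read from RefSeq (GRCm38.p6) for 8 of the 10 genes, 14 windows in all, each of 250 bases ending just before an annotated start. They were searched on both strands for a GATA motif (GATAA), an ETS motif of the kind PU.1 binds (GAGGAA), the E-boxes CATGTG, which MITF binds, or CACGTG, which MITF also binds, and a RUNX motif (TGTGGT). The RUNX motif can share several letters with the E-boxes, most with the first of them. Other pairs share at most the letter at their ends, and the GATA motif and the ETS motif share none. Shown are the window of Gata1, the gene called in the first comparison below, and the 3 windows that hold GATAA, the motif of the GATA factors themselves. Capitals mark the GATA motif (GATAA, or TTATC where it lies on the other strand) or the ETS motif (GAGGAA, or TTCCTC where it lies on the other strand), and each sequence runs 5′ to 3′ on its gene's strand.
Gata1, chrX:7967911-7968160, minus strand: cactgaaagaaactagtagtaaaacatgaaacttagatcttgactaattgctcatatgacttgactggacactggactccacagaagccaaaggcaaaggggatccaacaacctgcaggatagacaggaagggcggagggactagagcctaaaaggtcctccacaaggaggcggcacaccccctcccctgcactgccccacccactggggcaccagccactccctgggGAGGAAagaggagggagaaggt
Tal1, chr4:115056176-115056425, plus strand: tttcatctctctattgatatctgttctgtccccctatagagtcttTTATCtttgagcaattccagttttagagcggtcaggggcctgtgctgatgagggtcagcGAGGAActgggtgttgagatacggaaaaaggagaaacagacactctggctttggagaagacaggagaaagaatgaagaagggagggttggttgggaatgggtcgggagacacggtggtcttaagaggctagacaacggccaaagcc
Mitf, chr6:97929567-97929816, plus strand: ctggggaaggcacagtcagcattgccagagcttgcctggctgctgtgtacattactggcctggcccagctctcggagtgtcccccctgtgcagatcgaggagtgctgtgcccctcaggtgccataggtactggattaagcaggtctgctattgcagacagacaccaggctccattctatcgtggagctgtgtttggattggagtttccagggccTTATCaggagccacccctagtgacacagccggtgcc
Mitf, chr6:97991533-97991782, plus strand: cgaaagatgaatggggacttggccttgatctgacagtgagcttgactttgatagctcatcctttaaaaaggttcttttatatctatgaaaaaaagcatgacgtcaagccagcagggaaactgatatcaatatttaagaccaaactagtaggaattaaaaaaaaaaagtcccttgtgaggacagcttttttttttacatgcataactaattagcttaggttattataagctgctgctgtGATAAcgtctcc
The Tal1 window holds a GATA and an ETS motif, and the Mitf windows belong to separate starts of that gene, which gene-level counts do not distinguish. GATAA was in 3 of the 14 windows and in 22.6% of all 32851 windows of the same length, and GAGGAA was in 3 of the 14 (of Gata1, Tal1 and Runx1) and in 23.3% of all. CACGTG was in 1 window, of Runx1 (6.02% of all), TGTGGT in 1 window, of Mitf (14.05%), and CATGTG in 0 of 14 (12.3%). These are letter matches in short windows near starts, and a missing match says only that the letters are not there.

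The first comparison set resident mast cells of MC903-treated mice against those of untreated mice. Gata1 rose 1.74-fold and was the only called gene of the 9 tested (p under 0.05 after Benjamini-Hochberg adjustment of edgeR quasi-likelihood tests), where 2.25% of all 21014 genes tested were called and 0.571% were called as higher. Runx1 was next nearest to the threshold, with a higher mean in MC903 resident cells. Gata2, Tal1 and Mitf had lower means without passing the test. Without adjustment 4 of the 9 (Gata1, Gata2, Runx1 and Irf8) had a p under 0.05, where 12.6% of all genes had. Differences are fitted log2 fold changes, called log2 differences here, and their median was -0.11 over the 9 genes and 0.24 over all genes tested. Library ranges did not overlap for 3 of the 9 (Gata1 and Irf8 higher, Gata2 lower), and for 5.33% of all genes tested. Irf8 passed the filter on low counts only through the MC903 resident libraries and library 15, with untreated counts of at most 6. The filter thus favoured its place in both of these counts of genes.

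Gata1 (ENSMUSG00000031162.14, GRCm38 chromosome X, 7959260 to 7978071, minus strand) encodes a zinc finger factor of erythroid cells, megakaryocytes, eosinophils and mast cells. Its CPM in untreated resident libraries 1 to 5 was 113, 96.4, 107, 111 and 111. In MC903 resident libraries 6 to 10 it was 169.7, 129.8, 158, 225 and 251. Every treated library was above every untreated one, libraries 9 and 10 were the highest, and the untreated libraries lay close together. The 10 erythroid and megakaryocyte markers summed to 289 to 601 CPM in untreated and 501 to 924 CPM in MC903 resident libraries, with libraries 9 and 10 again highest. Most of that sum was Itga2b, the integrin αIIb gene, which mast cells also express (737 against 461 CPM, adjusted p = 0.151 by edgeR). Epor, the erythropoietin receptor gene, was at 7.36 to 32.5 CPM in MC903 resident and 4.36 to 9.69 CPM in untreated libraries (adjusted p = 0.486 by edgeR). The globin genes Hbb-bt and Hba-a2 were at 0 CPM in both groups, Hbb-bs and Hba-a1 averaged 0.301 and 0.325 CPM in MC903 resident cells and 0 in untreated ones, and the part of such cells in the Gata1 result was not tested. The 8 endothelial markers also separated the groups, at 14.3 to 27.2 CPM in MC903 resident, 6.52 to 11.9 CPM in untreated and 15.8 to 45.5 CPM in bone marrow libraries, mostly through Pecam1 in the last, while Cdh5 was at most 0.0838 CPM there. Gata2, Tal1 and Lmo2 are also endothelial genes, and the part of such cells in any result was not tested. The means were 187 ± 49.8 against 108 ± 6.58 CPM (SD, n = 5 each), or 0.80 ± 0.199 on the log2 scale (SE; adjusted p = 0.0348 by edgeR). This call did not hold without library 2 (adjusted p = 0.0740 by edgeR), library 3 (0.0647) or library 10 (0.0855), without the filter on low counts (0.113), with a required log2 change of 1, and with gene length or GC offsets taken over all genes (0.723 and 0.423). It held when any of the other 7 libraries was left out and in 10 of 14 other alternatives, and its log2 difference stayed positive in all 24 of these fits (0.46 to 1.004).

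Gata2 (ENSMUSG00000015053.14, chromosome 6, 88193891 to 88207032, plus strand), the most abundant of the set, went the other way in its means. It was at 2502, 3212, 3120.4, 2716 and 2452 CPM in libraries 1 to 5. In libraries 6 to 10 it was at 2120.2, 1668, 2055, 2265 and 2142 CPM. All 5 MC903 resident libraries were below all 5 untreated ones, with library 7 lowest. The means were 2049.9 ± 227 and 2801 ± 349.7 CPM (SD, n = 5 each), and the log2 difference of -0.45 ± 0.190 (SE) did not pass the test (adjusted p = 0.291 by edgeR). Without the filter on low counts it did (adjusted p = 0.0188 by edgeR), which is the single alternative of 24 in which Gata2 was called.

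The balance of the GATA genes within a library is free of library scaling. The ratio of Gata2 to Gata1 in TPM was 10.03, 15.1, 13.2, 11.1 and 9.97 in untreated libraries 1 to 5. It was 5.64, 5.80, 5.87, 4.54 and 3.86 in MC903 resident libraries 6 to 10, so that the highest of these was well under the lowest untreated value. In bone marrow libraries 11, 13 and 14 it was 8.18, 13.8 and 13.8, and in library 15 it was 5.56. The 3 bone marrow libraries other than library 15 were thus above all MC903 resident libraries, and library 15 was among them. The separation of MC903 resident from untreated libraries follows from the Gata1 and Gata2 values above, so it adds no further support. Effects of gene length or GC need not cancel in such a ratio. These ratios were not tested.

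Gata3 (ENSMUSG00000015619.10, chromosome 2, 9857078 to 9890034, minus strand), best known from T cells and type 2 innate lymphoid cells and also expressed in early mast cells, was low and uneven. It ranged from 4.37 to 17.5 CPM in untreated and from 5.62 to 19.7 CPM in MC903 resident libraries, with libraries 3, 6 and 10 high. Its log2 difference was 0.38 ± 0.752 (SE; adjusted p = 0.917 by edgeR). The 10 T cell and innate lymphoid markers summed to 53.0 to 107 CPM in untreated and 46.9 to 103 CPM in MC903 resident libraries. Libraries 6 and 10 had the highest MC903 resident sums (103 and 97.9 CPM), while untreated library 3 was at 63.8 CPM. Most of the sum was Il7r, with means of 74.5 CPM in untreated and 48.0 CPM in MC903 resident cells. Cd4 averaged 0.578 and 14.2 CPM, and Cd3g 1.17 and 0.883 CPM. The part of such cells in the Gata3 values was not tested. Gata3 shares 3.90% of its exon bases with the antisense gene Gm13256 and 1.94% with 9230102O04Rik on the same strand. The strand setting of the counting is not given in the sources used here, so the low counts of Gata3 are uncertain to that extent.

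Tal1 (ENSMUSG00000028717.12, chromosome 4, 115056426 to 115071755, plus strand), the E-box binding partner in the GATA complex, was at 192, 160.1, 179, 154 and 105 CPM in untreated libraries 1 to 5. It was at 109.5, 118, 114, 89.5 and 127 CPM in libraries 6 to 10. Untreated library 5 lay among the treated libraries and the other 4 above them. Tal1 had a log2 difference of -0.50 ± 0.245 (SE; adjusted p = 0.408 by edgeR). Lmo2 (ENSMUSG00000032698.15, chromosome 2, 103957986 to 103981878, plus strand), which bridges TAL1 to GATA factors, was at 12.6 to 32.0 and 15.4 to 23.1 CPM, with complete overlap. Its log2 difference of -0.11 ± 0.563 (SE; adjusted p = 0.973 by edgeR) turned positive with other library scalings (0.05 with DESeq2 size factors), so it has no stable direction.

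Mitf (ENSMUSG00000035158.15, chromosome 6, 97807052 to 98021349, plus strand), which mast cells share with melanocytes, was at 94.2, 123, 162, 112 and 110.3 CPM in untreated libraries 1 to 5. In libraries 6 to 10 it was at 115, 91.6, 68.6, 86.4 and 122 CPM. The groups overlapped, with libraries 6 and 10 inside the untreated range. Its log2 difference was -0.31 ± 0.207 (SE; adjusted p = 0.623 by edgeR). The 6 melanocyte markers summed to 0.170 to 2.09 CPM in untreated, 0.341 to 15.1 CPM in MC903 resident and 0.626 to 10.9 CPM in bone marrow libraries. Dct reached 7.22 CPM in MC903 resident cells and was at 0 CPM in 8 of the 14 libraries, Pmel was at 0.626 to 10.9 CPM in bone marrow libraries, and the part of such cells in the Mitf values was not tested.

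Among the broader myeloid factors, Runx1 (ENSMUSG00000022952.17, chromosome 16, 92601466 to 92826149, minus strand) encodes the DNA-binding part of core binding factor. It was at 61.5, 65.7, 85.6, 61.1 and 70.5 CPM in untreated libraries 1 to 5 and at 83.5, 147, 103, 102 and 148 CPM in libraries 6 to 10. The groups overlapped only through untreated library 3 and treated library 6. The means were 117 ± 29.2 and 68.9 ± 10.1 CPM (SD, n = 5 each), a log2 difference of 0.76 ± 0.209 (SE) with an edgeR adjusted p of 0.0620. It passed the threshold in 8 of 14 other alternatives, among them DESeq2 size factors in edgeR (adjusted p = 0.0149) and a fit of the 2 groups alone (0.0371), and without library 6 (0.0179) or library 9 (0.0291).

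Spi1 (ENSMUSG00000002111.8, chromosome 2, 91082390 to 91115756, plus strand), which encodes PU.1, was at 123 to 152 CPM in untreated and 82.6 to 158 CPM in MC903 resident libraries, with a log2 difference of -0.24 ± 0.241 (SE; adjusted p = 0.797 by edgeR). Irf8 (ENSMUSG00000041515.10, chromosome 8, 120736358 to 120756694, plus strand), an interferon regulatory factor of macrophage and dendritic lineages, had counts of 6, 0, 0, 0 and 4 in untreated libraries 1 to 5. It had 32, 98, 12, 10 and 16 counts in libraries 6 to 10, all above the untreated ones also as CPM (0.487 to 5.68 against at most 0.340 CPM). Of the macrophage and dendritic markers, Adgre1 (0.633 to 16.9 against at most 0.313 CPM) and Itgax (0.681 to 7.10 against at most 0.369 CPM) were apart in the same way, while the sum of all 12 overlapped (63.9 to 179 and 58.2 to 140 CPM). Their part in the Irf8 values was not tested. A count of 0 allows up to 0.142 CPM in these libraries, taking 3 counts as the limit, which covers counting error only because amplified reads are not independent molecules. The log2 difference of 4.13 ± 1.86 (SE) was not called (adjusted p = 0.342 by edgeR), and limma with quality weights put it at an adjusted p of 0.0422. Cebpa (ENSMUSG00000034957.10, chromosome 7, 35119293 to 35121928, plus strand) had at most 4 counts in 9 of these 10 libraries and 40 in untreated library 3.

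**Figure D2:**
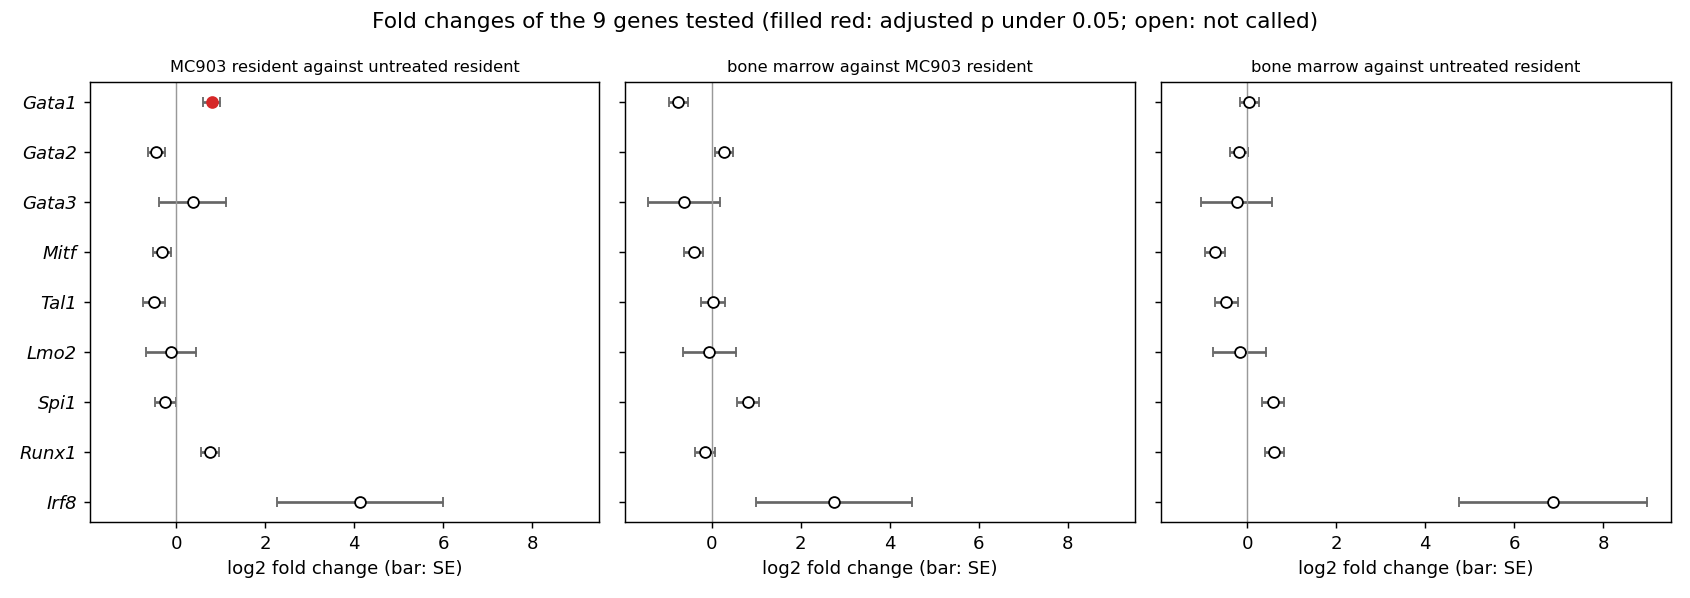
Fitted log2 fold changes (horizontal axis) of the 9 tested genes in the 3 comparisons, with bars of 1 SE, filled red where the edgeR adjusted p was under 0.05. Gata1 in MC903 resident against untreated resident cells, at 0.80, is the filled point, and Irf8 carries the widest bars.

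The second comparison set bone marrow cells against resident cells of the same treatment, so that cell type differed and treatment did not. It shares the MC903 resident libraries with the first comparison. Of the 9 genes tested, 0 were called (edgeR adjusted p under 0.05), where 2.27% of all genes were, and 2 had an unadjusted p under 0.05 (Gata1 and Spi1), where 17.7% of all genes had. By the DESeq2 Wald test, which gave Irf8 no adjusted p, 1 of the other 8 was called (Gata1), where 8.8% of genes with an adjusted p were, and by limma with quality weights 0, where 9.86% of all genes were. Without library 15, edgeR called 0 of the 9, where it called 704 of all 24370 genes tested. Library ranges overlapped for all 9, and were apart for 8.29% of all genes. The median log2 difference was -0.06 over the 9 and -0.28 over all genes tested.

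Gata1 was at 142, 98.0, 99.2 and 105 CPM in bone marrow libraries 11, 13, 14 and 15, against the 129.8 to 251 CPM of MC903 resident cells. Library 11 lay inside the resident range and the other 3 below it. Library 11 was also high in the 5 basophil markers, which summed to 1566 CPM there and to 307 to 835 CPM elsewhere, through Mcpt8 (980 CPM, against 46.7 to 206 CPM in libraries 13, 14 and 15), while Prss34 was at 4.78 CPM. The part of such cells in its Gata1 level was not tested. The means were 111 ± 21.0 (SD, n = 4) and 187 ± 49.8 CPM (SD, n = 5). The log2 difference of -0.75 ± 0.212 (SE) missed the threshold (adjusted p = 0.0715 by edgeR). It was called in 7 of 14 other alternatives, including DESeq2 size factors in edgeR (adjusted p = 0.0156), and without library 6 (0.0470), 7 (0.0236) or 11 (0.0495), and it turned to 0.06 with the length offset taken over all genes. Without library 15 it was -0.71 (adjusted p = 0.0998 by edgeR).

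Spi1 had a higher mean in bone marrow cells, and library 15 carried much of the difference. It was at 140.4, 159, 156 and 345 CPM in libraries 11, 13, 14 and 15. With library 15 the mean was 200.3 ± 97.0 CPM (SD, n = 4) and the log2 difference 0.82 ± 0.255 (SE; adjusted p = 0.101 by edgeR). It was called in 2 of 14 other alternatives, without the filter on low counts (edgeR adjusted p = 0.0463) and with the length offset over all genes (0.0126). Without it the mean was 152 ± 10.2 CPM (SD, n = 3) and the log2 difference 0.43 (adjusted p = 0.173 by edgeR). The ratio of Spi1 to Gata2 in TPM was 0.537 in library 15 and 0.0787 to 0.140 in the other 13 libraries.

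Library 15 also carried the Irf8 and Cebpa counts. Irf8 had 0, 6, 0 and 977 counts in libraries 11, 13, 14 and 15, and Cebpa had 0, 0, 0 and 309. The fitted Irf8 difference from MC903 resident cells was 2.74 ± 1.76 on the log2 scale (SE; adjusted p = 0.434 by edgeR) and reversed to -4.60 without library 15 (adjusted p = 0.177 by edgeR). In library 15 also, Gata2 (1288 CPM), Tal1 (52.3 CPM) and Gata3 (0.304 CPM) were below all other 13 libraries, while Gata1, Mitf, Lmo2 and Runx1 were inside the range of the others. The macrophage markers that were high in library 15 are given above, and their part was not tested.

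**Figure D3:**
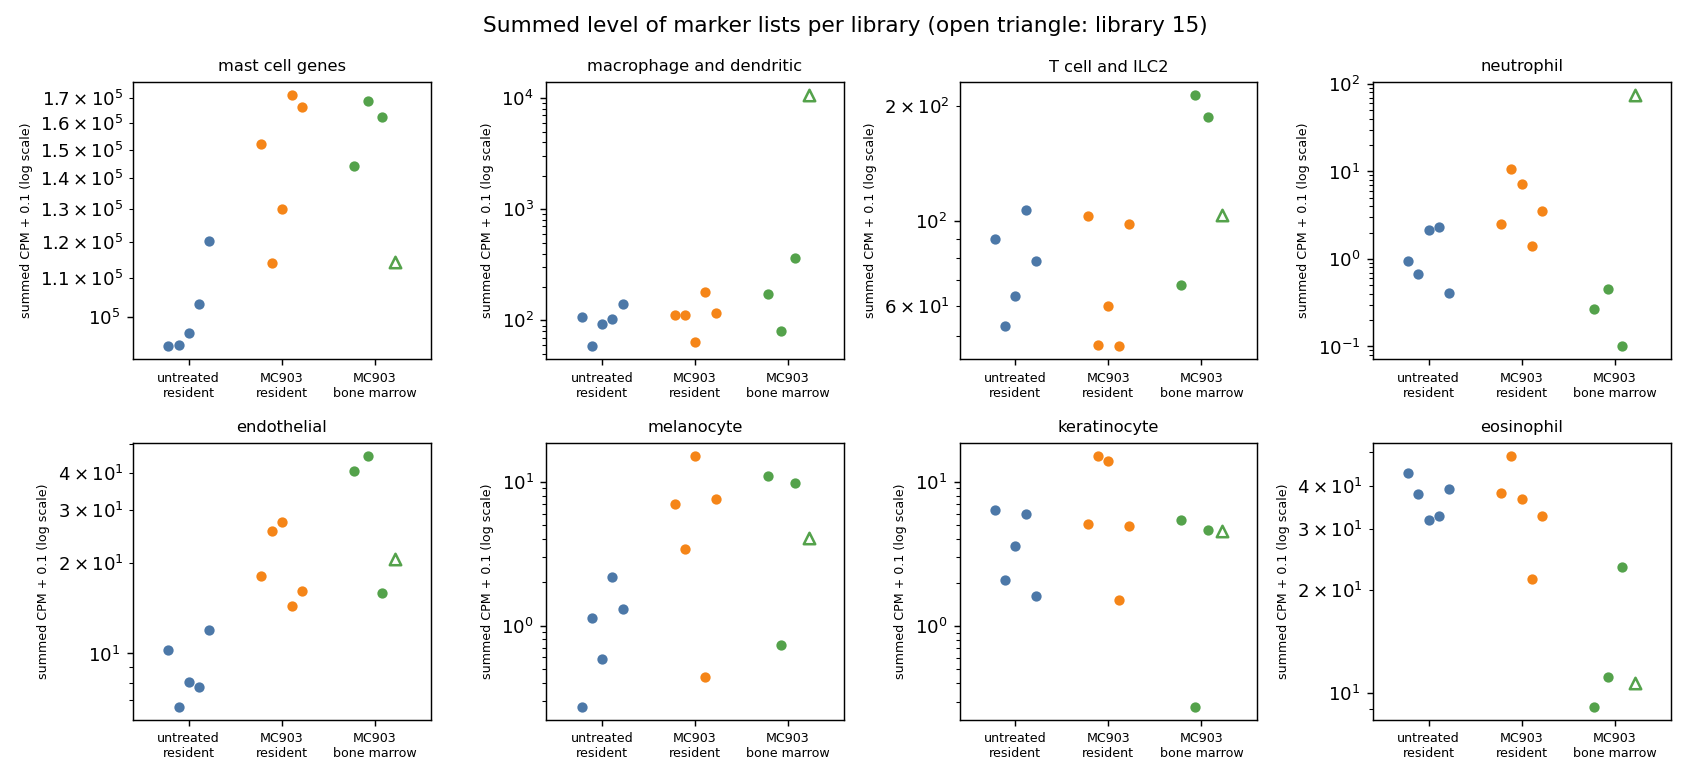
Summed level of each marker list (CPM plus 0.1, log axis) in each library by group, with library 15 as an open triangle. Macrophage and dendritic markers reach 10685 CPM in library 15, against 58.2 to 363 CPM elsewhere, while its mast cell genes stay inside the range of the others.

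Gata2 was at 2578, 2993, 3039.9 and 1288 CPM in bone marrow libraries 11, 13, 14 and 15. The first 3 were above all MC903 resident libraries and library 15 below them. Its log2 difference was 0.27 ± 0.201 (SE; adjusted p = 0.509 by edgeR), and 0.49 without library 15 (adjusted p = 0.0845 by edgeR). Tal1 was at 106, 147, 149.5 and 52.3 CPM, with a log2 difference of 0.03 ± 0.259 (SE; adjusted p = 0.968 by edgeR) that had no stable sign. Gata3 ran from 0.304 to 12.9 CPM (log2 difference -0.62 ± 0.806; adjusted p = 0.746 by edgeR).

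Lmo2 divided the bone marrow libraries. It was at 4.61 and 2.02 CPM in libraries 11 and 13, below every other library of the series, and at 33.9 and 32.3 CPM in libraries 14 and 15. The last 2 were the highest in CPM, but untreated library 3 was close to them (32.0 CPM). In TPM library 3 was above both (32.9 against 28.2 and 25.5 TPM). The group mean of 18.2 ± 17.2 CPM (SD, n = 4) therefore stands for none of the 4 bone marrow libraries, and the log2 difference of -0.06 ± 0.598 (SE; adjusted p = 0.974 by edgeR) averages over that split. Mitf (61.4 to 83.2 CPM, log2 difference -0.41 ± 0.221; adjusted p = 0.347 by edgeR) and Runx1 (89.8 to 132 CPM, -0.15 ± 0.221; adjusted p = 0.781 by edgeR) overlapped with MC903 resident cells. Without library 15 the log2 differences of Tal1, Gata3, Lmo2, Mitf and Runx1 were 0.28, -0.21, -0.48, -0.41 and -0.073, none of them called by edgeR.

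The third comparison set bone marrow cells against resident cells of untreated mice, where treatment and cell type differ together and cannot be told apart, and it shares libraries with both others. Of the 9 genes 0 were called (edgeR adjusted p under 0.05), where 6.87% of all genes were. At an unadjusted p under 0.05 there were 4 (Mitf, Spi1, Runx1 and Irf8), where 21.3% of all genes passed. The DESeq2 Wald test, again without an adjusted p for Irf8, called 2 of the other 8 (Mitf and Runx1), where it called 16.1% of genes with an adjusted p, and limma with quality weights 0, where it called 10.5% of all genes. Without library 15, edgeR called 0 of the 9, where it called 1549 of all 24370 genes tested. Library ranges did not overlap for 2 (Mitf lower, Runx1 higher), and for 10.4% of all genes tested. The median log2 difference was -0.17 over the 9 and -0.14 over all genes.

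Mitf was at 72.1, 83.2, 61.4 and 75.5 CPM in libraries 11, 13, 14 and 15, and every one of these was under the lowest untreated library (94.2 CPM). The means were 73.0 ± 9.04 (SD, n = 4) and 120.3 ± 25.3 CPM (SD, n = 5). This is a log2 difference of -0.72 ± 0.222 (SE), at an edgeR adjusted p of 0.0554. It passed in 6 of 14 other alternatives, among them DESeq2 size factors in edgeR (adjusted p = 0.0348) and protein-coding genes alone (0.0495), and without library 1 (0.0374) or, narrowly, library 5, and it turned to 0.07 with the GC offset taken over all genes. Without library 15 Mitf was at -0.74 (adjusted p = 0.0892 by edgeR).

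Runx1 was at 89.8, 132, 109.6 and 89.9 CPM in the bone marrow libraries, all above the highest untreated library (85.6 CPM). Its log2 difference was 0.61 ± 0.220 (SE; adjusted p = 0.105 by edgeR), and it passed in 5 of 14 other alternatives. Leaving out library 15 gave 0.68 (adjusted p = 0.0994 by edgeR). Mean Runx1 was thus 68.9, 117 and 105 CPM in untreated resident, MC903 resident and bone marrow cells, and mean Mitf was 120.3, 96.8 and 73.0 CPM. Gata1 stood at 111 against 108 CPM (log2 difference 0.05 ± 0.209; adjusted p = 0.938 by edgeR), with a sign that turned under the length and GC offsets and without library 11.

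For Irf8 the log2 difference of 6.88 ± 2.12 (SE; adjusted p = 0.0548 by edgeR) rested on library 15 and became -0.48 without it (adjusted p = 0.904 by edgeR). It was called in 3 of 12 other alternatives and without library 11, 13 or 14 (edgeR adjusted p from 0.0217 to 0.0392). Spi1 had a log2 difference of 0.58 ± 0.255 (SE; adjusted p = 0.187 by edgeR) with library 15 and 0.18 without it (0.619). Gata2, Tal1, Lmo2 and Gata3 had log2 differences of -0.18, -0.47, -0.17 and -0.24, with edgeR adjusted p-values from 0.318 to 0.921. Without library 15 the log2 differences of Gata2, Tal1, Lmo2, Gata3 and Gata1 were 0.035, -0.24, -0.60, 0.16 and 0.077.

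**Figure D4:**
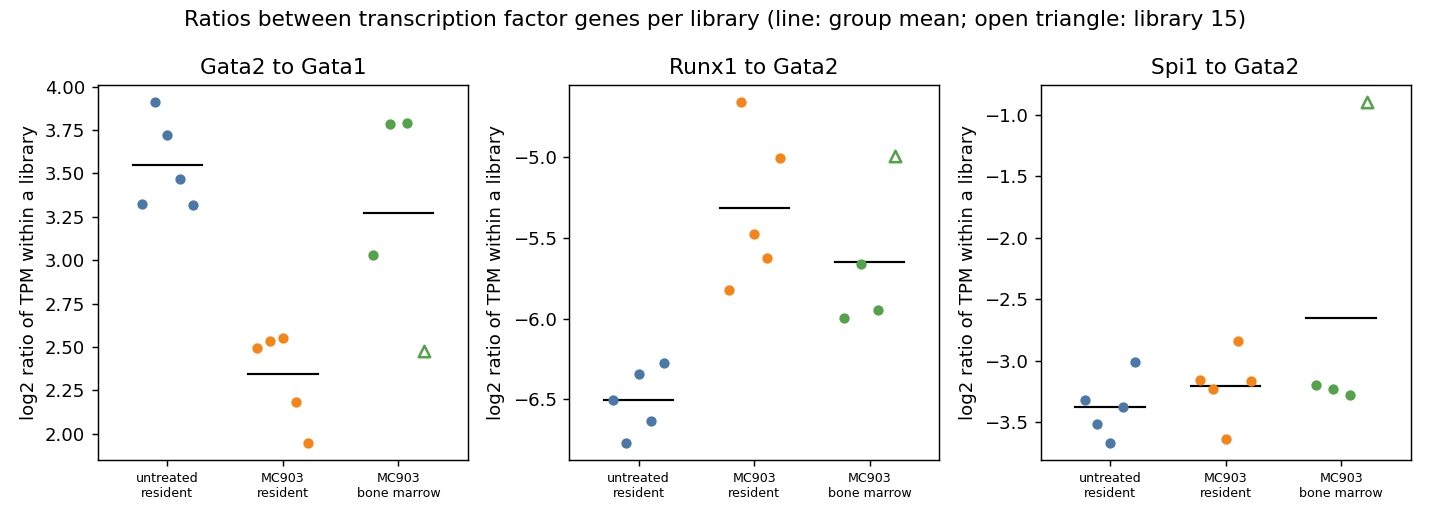
Log2 ratio of TPM within each library (vertical axis) for Gata2 to Gata1, Runx1 to Gata2 and Spi1 to Gata2, by group, with the group mean as a line and library 15 as an open triangle. MC903 resident libraries are apart from untreated ones for the first 2 ratios, and library 15 is apart from the other 13 for Spi1 to Gata2.

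A list of 38 partners and related transcription factors, including the complex members Ldb1 and Lyl1, the RUNX partner Cbfb, the C/EBP genes and the Ikaros genes, was read from the same test, which covered 35 of them. In MC903 resident against untreated resident cells 0 were called, where 2.25% of all genes were, and the median log2 difference was -0.25, against 0.24 over all genes. Library ranges did not overlap for 3 of the 35 (Ikzf2 higher, Cebpd and Runx2 lower), and for 5.33% of all genes tested. Ldb1 was at 89.3 against 138 CPM (adjusted p = 0.220 by edgeR) and Cbfb at 49.1 against 67.2 CPM (0.699), and both overlapped between the groups. These 2 were picked for their role after values had been seen.

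In bone marrow cells Lmo4, a LIM-only gene related to Lmo2, was the partner that rose. Its CPM in libraries 11, 13, 14 and 15 was 118, 124, 102.5 and 99.2, against 16.3 to 37.8 CPM in MC903 resident and 24.2 to 40.8 CPM in untreated resident libraries. The bone marrow libraries were far above both groups and close to one another, library 15 included. The 10 proliferation genes moved with the same groups, with sums of 703 to 1398 CPM in bone marrow, 319 to 663 CPM in MC903 resident and 201 to 534 CPM in untreated resident libraries. Of these 10, 1 rose against MC903 resident and 4 against untreated resident cells, where 2.27% and 6.87% of all genes were called, and the part of proliferation in the Lmo4 result was not tested. The log2 difference was 2.18 ± 0.268 (SE; adjusted p = 6.91e-05 by edgeR) against MC903 resident and 1.80 ± 0.265 (SE; adjusted p = 0.000152 by edgeR) against untreated resident cells, and it was called in all 23 alternatives of each. Of the 35 partners 1 rose and 0 fell in the first of these comparisons (median 0.32, against -0.28 over all genes), where 2.27% of all genes were called. In the second 1 rose and 1 fell (median -0.02, against -0.14), where 6.87% were. These shares are near those over all genes. Without library 15, 2 rose in the first, where 704 of all 24370 genes tested were called. In the second 3 rose and 1 fell, where 1549 of all genes were called. The one that fell was Gfi1, a repressor of myeloid and lymphoid cells, at 21.4 against 73.9 CPM (log2 difference -1.79 ± 0.442; adjusted p = 0.0148 by edgeR), a call lost with the length offset over all genes (0.126).

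A list of 16 genes known to be bound or driven by these factors in mast cells (the IgE receptor genes, Kit, proteases, and enzymes of amine and prostaglandin synthesis) was read in the same way. In MC903 resident against untreated resident cells 5 rose and 2 fell, where 2.25% of all genes were called, with a median log2 difference of 0.21 against 0.24 over all genes. Fcer1a, the α chain of the IgE receptor, rose by 2.95 ± 0.232 and Tph1, the enzyme of serotonin synthesis, by 2.05 ± 0.200 on the log2 scale (SE, edgeR adjusted p = 7.1e-07 and 6.8e-06). Tpsb2, Cma1 and Mcpt4, all proteases, had log2 differences of 0.99, 0.75 and 0.75. Those that fell were Hdc, the enzyme of histamine synthesis (-0.98 ± 0.179; adjusted p = 0.00333 by edgeR), and Ms4a2, the β chain of the IgE receptor (-0.84 ± 0.210; adjusted p = 0.0350 by edgeR). Ms4a2 stayed called without library 2 or 10, but not without any of the other 8 libraries (edgeR adjusted p up to 0.111), and it was called in 9 of 14 other alternatives. With the offsets taken over all genes only Fcer1a and Tph1 of these 7 were called, and Cma1 was also lost without the filter on low counts (edgeR adjusted p = 0.106). Genes of the list were called in both directions here, and the part of Gata1 or of the other factors in that was not tested.

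In bone marrow against MC903 resident cells 2 of the 16 rose (Tpsab1, a tryptase, and Srgn, the granule proteoglycan, by 0.88 and 0.86) and 2 fell (Mcpt4 and Fcer1a, with -1.44 and -0.90), where 2.27% of all genes were called, with a median log2 difference of -0.24. Srgn was not called without library 7 or 11 (edgeR adjusted p = 0.0619 and 0.0517). Tpsab1 was not called with the length offset from genes of at least 10 CPM (edgeR adjusted p = 0.0588). Against untreated resident cells 6 rose and 4 fell, where 6.87% of all genes were called, with a median of 0.18. Fcer1a, Tph1, Cma1 and Srgn had log2 differences of 2.05, 1.48, 1.02 and 0.95. Ms4a2, Hpgds (prostaglandin D synthesis), Slc18a2 (vesicular amine transport) and Mcpt4 had -1.41, -1.09, -1.02 and -0.68. All were called by edgeR (adjusted p from 8.89e-06 to 0.0441). Against MC903 resident cells, Fcer1a was no longer called when 1 library was left out in 6 of 9 cases, library 15 among them (edgeR adjusted p = 0.0730). With the length and GC offsets over all genes it turned to 0.49 and 0.077, and Mcpt4 was at -0.11 and -0.81, neither of them called. In the comparison with untreated cells the same offsets ended the calls of Ms4a2, Hpgds, Slc18a2 and Mcpt4, with Mcpt4 turned to 0.12 (length) and Ms4a2 to 0.46 (GC). Limma with quality weights did not call Mcpt4 there either.

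For each of the 7 followed genes with a mean above 10 CPM over all libraries, the genes with the most similar profile over the 14 libraries were found among 6022 candidates, by the root mean square difference of centred log2 CPM. Gata1 was closest to Il1rl1 (the interleukin 33 receptor, difference 0.24), then Pdzd11 and Nek7. Gata2 was closest to Nedd4 (0.20), Rere and Tpr, Tal1 to Rbm14 (0.22), Sbno1 and Osbpl8, and Mitf to Tprgl (0.20), Pfkp and Bclaf1. Spi1 was closest to Gdi2 (0.22), Ap2m1 and S100a11, and Runx1 to Tmem167 (0.26), Mcrip1 and Sec11c. Lmo2 varied more itself (root mean square 1.07, against 0.36 to 0.46 for the other 6), and its closest gene was Sp3 at 0.60. The libraries share groups and depth differences, so these distances describe the 14 libraries only.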

How the data were processed

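RNA was measured in 14 libraries. The authors deposited whole-number read counts, not normalised, for 55487 genes with exon lengths, of which 55094 had the same versioned identifier, start and end in GENCODE M21 (GRCm38). Per the submitters' processing notes STAR, featureCounts and mm10 were used. Their versions, strand setting and trimming are not given in the sources used here. Groups came from the labels, which give no animal, batch or pairing.

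Low counts were removed with filterByExpr (count 10, total 15), leaving 21014 genes, and libraries were scaled by TMM. With edgeR 4.0.16 in R 4.3.3, 1 robust quasi-likelihood fit covered all 3 groups without covariates. Benjamini-Hochberg adjustment ran over every gene tested, and an adjusted p under 0.05 was called. Each standard error is the size of the log2 difference divided by the root of its F statistic. The common dispersion was 1.33. CPM uses TMM-scaled library sizes, and TPM uses the exon length column. The code was tested on simulated data.

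All 10 genes were named in every comparison. From the partner and target lists, called genes averaging 10 CPM or more in the higher group were named, up to 5 per direction. Nearest genes (prior count 2) needed a mean of at least 20 CPM and a symbol that is no predicted-gene or clone name. Members and lists were chosen with earlier results of these data known.

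Alternatives were DESeq2 size factors, TMM factors from genes of at least 10 CPM, no filter, a filter at 10 CPM, the DESeq2 1.42.0 Wald test, limma 3.58.1 voomWithQualityWeights, fits of only the groups compared, a gene length offset (20 bins), protein-coding genes only, a log2 change of at least 1 and leaving out each library. A GC offset from GENCODE transcripts and leaving out libraries 7, 8 and 15 together were added after seeing the data. The length and GC offsets were first computed with bin medians over all genes tested. After those results were seen, the medians were restricted to genes of at least 10 CPM, and both versions are reported.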

Additional observations from a re-analysis of the deposited data

Results flagged for a closer look

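Within groups of 4 or 5 libraries, 9 of 69 sets of values had a highest or lowest library whose gap to its nearest neighbour was large for the range of the group (Dixon's 95% limit), where chance flags about 1 in 20 groups. Of the 30 sets for the 10 transcription factor genes, 7 were among them, and 3 of these came from library 15: Spi1 at 345 CPM, Irf8 at 49.6 CPM and Cebpa at 15.7 CPM in bone marrow cells. Macrophage markers were high in the same library, and their part in these values was not tested. The other 4 were Gata1 at 142 CPM in bone marrow library 11 (where basophil markers summed to 1566 CPM, against 307 to 835 CPM elsewhere, their part not tested), Gata3 at 17.5 CPM and Cebpa at 1.502 CPM in untreated library 3, and Irf8 at 5.68 CPM in MC903 resident library 7. Of the target genes, Cma1 at 37611 CPM and Ms4a2 at 2754 CPM stood out in untreated library 5.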

How the results depend on the processing

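No paired analysis was possible because the libraries are numbered in a single running series, so that no 2 groups share a number. The planned GC offset from a genome sequence was not run, and transcripts stood in for it. In MC903 resident against untreated resident cells 1 of the 9 genes was called. The count was 2 with DESeq2 size factors, TMM factors from genes of at least 10 CPM, the filter at 10 CPM, the DESeq2 Wald test, limma, only the groups compared, protein-coding genes only, and the length and GC offsets. Calls over all genes were 1072 by DESeq2 and 1357 by limma, against 473. The count was 0 with a log2 change of at least 1 and with both offsets taken over all genes, and 0 to 2 leaving out each library. In bone marrow against MC903 resident cells the count was 0, and it was 1 with DESeq2 size factors, the 10 CPM TMM factors, no filter, the 10 CPM filter, the DESeq2 Wald test, the length offset in both versions, the GC offset and without libraries 7, 8 and 15. It was 0 to 1 leaving out each library. The gene was Gata1, but Spi1 with no filter and with the length offset over all genes. In bone marrow against untreated resident cells the count was 0. It was 1 with DESeq2 size factors, the 10 CPM TMM factors, no filter, only the groups compared, the length offset and the GC offset over all genes. It was 2 with the 10 CPM filter, the DESeq2 Wald test, protein-coding genes only and the length offset over all genes, and 0 to 1 leaving out each library. The genes were Mitf, Runx1 or Irf8. The cause of these differences was not tested.

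The log2 differences whose sign turned were not called in that comparison of the report, with the exceptions of Fcer1a, Mcpt4 and Ms4a2. Lmo2 (MC903 against untreated resident) was 0.052 with DESeq2 size factors and by DESeq2, 0.10 with the 10 CPM TMM factors, 0.11 with the 10 CPM filter and 0.043 with the length offset. Tal1 (bone marrow against MC903 resident) was -0.14 with size factors and by DESeq2, -0.16 with the 10 CPM TMM factors, -0.17 with the 10 CPM filter, -0.094 with only the groups compared, -0.21 with the length offset and -0.24 with the GC offset. In the same comparison Lmo2 was 0.017 with no filter, Runx1 0.069 with the length offset, Gata2 -0.018 with the GC offset, and Irf8 -3.60 by limma and -3.65 without libraries 7, 8 and 15. In bone marrow against untreated resident cells, Gata1 was -0.15 with the length and -0.18 with the GC offset. Without libraries 7, 8 and 15, Gata2 was 0.023, Gata3 0.15 and Irf8 -0.51. Mitf (MC903 against untreated resident) was 0.015 with the GC offset.

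The median over all genes moved by 0.48 and -0.90 without the filter in the first and second comparisons. The offsets taken over all genes shifted it by -0.29 (length) and -0.28 (GC) in the first, 0.54 and 0.52 in the second and 0.30 in the third comparison. With the length version in bone marrow against MC903 resident cells, Gata1 was 0.061, Lmo2 0.59, Runx1 0.61 and Fcer1a 0.49, and against untreated resident cells Gata2 was 0.26, Gata3 0.10, Lmo2 0.033 and Mcpt4 0.12. With the GC version the values were 0.089 (Gata3), 0.53 (Mitf), 0.066 (Lmo2), 0.53 (Runx1) and 0.077 (Fcer1a) in the former, and -0.083 (Gata1), 0.33 (Gata3), 0.067 (Mitf) and 0.46 (Ms4a2) in the latter. With the medians restricted to genes of at least 10 CPM Gata1 was called, so the Gata1 call depends on that choice, which was made after the first results were seen.

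Leaving out each library, log2 differences ran from -0.23 to 0.13 (Lmo2, MC903 against untreated resident). In bone marrow against MC903 resident cells they ran from -0.17 to 0.28 (Tal1), -0.55 to 0.30 (Lmo2) and -4.60 to 3.75 (Irf8). Against untreated resident cells they ran from -0.10 to 0.10 (Gata1), -0.29 to 0.035 (Gata2), -0.73 to 0.23 (Gata3), -0.67 to 0.20 (Lmo2) and -0.48 to 8.02 (Irf8), and both low Irf8 values came from leaving out library 15.

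Of the 10 ranks by TPM, 8 were kept in MC903 resident and 6 in bone marrow cells with medians, and 8 and 7 with the longest transcript. Leaving out each library kept 8 to 10 in untreated resident and 6 to 8 in bone marrow cells. Scaling moved the median of all genes by 0.15 with DESeq2 size factors and 0.21 with the 10 CPM TMM factors in the first comparison, and by -0.15 and -0.16 in the second. Calls over all genes were 120 higher and 353 lower in the first, 207 and 294 with size factors and 250 and 266 with the 10 CPM factors. In the second they were 277 and 200, then 167 and 242, and 178 and 254. Over all alternatives calls ran from 234 to 1357, from 302 to 2073 and from 1056 to 2757 in the 3 comparisons. Partner calls ran from 0 to 3, 1 to 6 and 2 to 5, and target calls from 2 to 11, 1 to 8 and 4 to 12. Irf8 was over 3 counts in 9 and Cebpa in 4 of the 14 libraries, and lower levels could not be measured at these depths.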

Other observations

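The split of bone marrow libraries by Lmo2 ran alongside that of a pair of mucosal mast cell proteases, chosen after their values were seen. Mcpt1 was at 1278 and 1768 CPM in libraries 11 and 13, where Lmo2 was at 4.61 and 2.02 CPM, and at 1.07 and 6.59 CPM in libraries 14 and 15, where Lmo2 was at 33.9 and 32.3 CPM. Mcpt2 was at 1947 and 1482 CPM in the first pair and 150.2 and 89.3 CPM in the second. No other gene of the 10 divided the 4 libraries in those pairs by more than 5-fold. With 4 libraries, no test was made.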
